A study of Homo sapiens with 36 samples.

Results

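The degrader #11 was examined in FBXW7-/- HCT-116 cells treated with oxaliplatin (OXPT), by setting the 3 RNA-seq libraries titled KO PROTAC11 OXPT against the 3 titled FBXW7KO siCT OXPT. These 6 libraries, chosen by their titles alone, are part of a series of 36. HCT-116 cells are an established line from a human colorectal carcinoma. All 6 libraries carry the FBXW7 knockout (KO), a control esiRNA (esiCT) for 48 h and OXPT at 50 µM for the last 24 h, and differ by #11, which was added for 48 h. The treatment entry of the labels gives #11 at 1 µM and the description entry 10 µM, so the dose is not settled. The side-by-side values without OXPT come from 6 other libraries, 3 of KO esiCT and 3 of KO esiCT with #11, where untreated means solvent, per the methods. KO cells with an esiRNA against HDAC4 (esiHDAC4) and WT cells, each in 3 libraries with and 3 without OXPT, entered the same fit, and the WT entries disagree on whether esiCT or esiHDAC4 was used. The labels do not say whether the KO line is 1 clone, nor whether libraries of a group came from separate cultures, so p-values measure the spread between these libraries.

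Class IIa HDACs (HDAC4, HDAC5, HDAC7 and HDAC9) are nearly inactive as deacetylases. They shuttle between cytoplasm and nucleus, bind transcription factors such as those of the MEF2 family, and bring NCOR-containing repressor complexes to chromatin. #11 is a proteolysis-targeting chimera (PROTAC): a trifluoromethyloxadiazole-based ligand of class IIa HDACs joined to a ligand of VHL, the substrate receptor of a cullin-2 ubiquitin ligase, so that bound HDACs are ubiquitylated and sent to the proteasome. FBXW7 is the substrate receptor of another ubiquitin ligase. OXPT forms platinum adducts on DNA that block replication and transcription. A degrader acts on protein, so mRNA counts do not report whether the HDACs were lost.

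The sequences below lie upstream of HDAC4, the gene of the degraded protein, and of 3 genes that passed the test here, RPS6KA2, GNG7 and SH3RF2, and are shown as the windows in which motifs were searched. They are the 250 bases before each RefSeq start on GRCh38.p14, read 5′ to 3′ on the gene's strand: chr2:239274782-239275031 on the minus strand, chr6:166862526-166862775 on the minus strand, chr19:2702695-2702944 on the minus strand and chr5:145936328-145936577 on the plus strand. For HDAC4 and RPS6KA2 the RefSeq start lies inside the GENCODE gene, downstream of its 5′ end. Capitals mark a match to a CRE, an AP-1, a HIF core or a MEF2 motif, of which the only one in these 4 windows is the CRE of GNG7.
HDAC4: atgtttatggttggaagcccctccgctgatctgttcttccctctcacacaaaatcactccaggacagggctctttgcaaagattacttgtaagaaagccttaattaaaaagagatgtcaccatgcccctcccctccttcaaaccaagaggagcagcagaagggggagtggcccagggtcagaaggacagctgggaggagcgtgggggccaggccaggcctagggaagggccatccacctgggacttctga
RPS6KA2: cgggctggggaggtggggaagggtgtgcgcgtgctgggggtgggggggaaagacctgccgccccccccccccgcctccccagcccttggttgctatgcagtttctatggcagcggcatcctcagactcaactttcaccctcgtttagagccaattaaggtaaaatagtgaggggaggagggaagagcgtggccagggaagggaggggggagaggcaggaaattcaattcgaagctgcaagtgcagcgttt
GNG7: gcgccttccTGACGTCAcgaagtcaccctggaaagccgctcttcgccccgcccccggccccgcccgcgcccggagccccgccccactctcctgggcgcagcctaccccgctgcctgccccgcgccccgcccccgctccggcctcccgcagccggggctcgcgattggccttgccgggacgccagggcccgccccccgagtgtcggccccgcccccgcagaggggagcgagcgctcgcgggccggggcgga
SH3RF2: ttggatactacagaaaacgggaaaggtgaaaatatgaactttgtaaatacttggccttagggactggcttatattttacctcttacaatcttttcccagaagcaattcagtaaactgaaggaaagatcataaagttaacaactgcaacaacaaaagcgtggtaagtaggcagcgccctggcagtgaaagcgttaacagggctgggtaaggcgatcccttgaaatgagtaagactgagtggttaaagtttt

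Motifs were searched on both strands in these windows for the 11 of the 13 genes called higher (below) that had an entry, and in 9475 windows of the genes tested. The CRE letters TGACGTCA were in 1 of the 11 windows, that of GNG7, and in 3.04% of all windows. The AP-1 letters TGANTCA were in 0 of the 11 and in 3.66% of all, the HIF core ACGTG in 2 of the 11 (PPM1H and SRGAP3) and in 23.9%, and the GC box GGGCGG in 7 of the 11 and in 70% (printed in lower case above). The MEF2 motif was in 0 of the 11 and in 0.296% of all.

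The 24 libraries in the fit held 10725966 to 20527222 counts on genes, and the 6 compared here 10725966 to 19582737. KO esiCT OXPT replicate 3 was the smallest of the 24 and stood apart: 22.3% of its reads were unmapped, against 7.74% to 13.8% in the other 23, and its TMM factor was 0.789, the lowest of the 24. Within its group, its median deviation from the group mean was 0.69 on the log2 CPM scale in the decile of genes with the shortest transcripts and -0.43 in the decile with the longest, where replicates 1 and 2 stood at -0.45 and -0.24 in the shortest and 0.23 and 0.24 in the longest. Such slopes were not confined to it among the 24. In the same deciles, WT untreated replicate 3 stood at 0.55 and -0.55, WT OXPT replicate 3 at 0.23 and -0.63, and KO esiHDAC4 OXPT replicate 3 at 0.30 and -0.44. WT untreated replicate 2 sloped the other way, at -0.55 and 0.57. Calls and gene list medians are given with and without KO esiCT OXPT replicate 3, named below also as control replicate 3, as are the named genes that it moved most. The epithelial markers EPCAM, KRT8, KRT18, KRT19, CDH1, CLDN3, CLDN4 and CLDN7 were all tested and 0 of 8 were called, with summed levels of 9791 to 12985 CPM with #11 and 9823 to 22543 CPM without. Of 4 leukocyte markers, PTPRC and CD3E were at 0 counts in all 6 libraries. CD14 averaged 0.263 CPM with #11 and 0.194 CPM without, CD68 was lower, and the 4 summed to at most 0.561 CPM. The endothelial (3 genes) and hepatocyte and neural (4 genes) lists summed to at most 1.12 CPM. Of 5 fibroblast markers, COL1A1 alone passed the count filter (48.6 CPM with #11, 52.5 CPM without). COL1A2, COL3A1 and DCN were at 0 counts in the 3 libraries without #11.

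FBXW7 mRNA was still counted in KO cells, at 38.5, 32.8 and 28.3 CPM with #11 and OXPT and 34.0, 44.7 and 49.0 CPM with OXPT alone (CPM, counts scaled to library size with TMM factors, given in order of replicate number). These ranges overlapped, as did those of KO and WT cells without OXPT (15.4, 17.2 and 18.1 CPM against 16.9, 23.5 and 22.8 CPM), so gene-level counts do not tell KO from WT libraries. The log2 fold change of FBXW7 with #11 was -0.36 ± 0.30, adjusted p = 0.725.

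Under OXPT, KO cells with #11 held 13 genes at higher and 2 at lower mRNA levels than KO cells without it, with calls made where the adjusted p was under 0.05 and the fold over 1.5. RPS6KA2, which encodes the kinase RSK3 downstream of ERK, showed the smallest p, and HDAC4 itself was among the 13. The others higher were PADI3 (a peptidylarginine deiminase), GNG7 (a G protein gamma subunit), PPM1H (a protein phosphatase), SRGAP3 (a GTPase-activating protein), SORCS2 (a sortilin-related receptor), TNS3 (a focal adhesion tensin), PACS2 (a sorting protein), COL18A1 (a basement membrane collagen), HEXD (a hexosaminidase), MTA1 (a subunit of the NuRD repressor complex) and GLB1 (lysosomal beta-galactosidase). SH3RF2, a RING and SH3 domain protein, and ENSG00000238178 were lower. The 15 calls are 0.121% of the 12356 genes tested, 0.105% higher and 0.0162% lower, by edgeR's quasi-likelihood F test with Benjamini-Hochberg adjustment. Before adjustment, p was under 0.05 for 6.24% of genes in the higher direction (771 genes) and for 3.99% in the lower (493 genes). The 3 libraries of either group did not overlap for 9.46% of genes in the higher direction and 4.89% in the lower. PADI3, RPS6KA2, GNG7, PPM1H and SRGAP3 averaged under 64 raw counts without #11, SH3RF2 did so with #11, and ENSG00000238178 has no symbol. These 7 fall outside the rule for named genes and are described because they were called.

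RPS6KA2 stood at 8.94, 5.68 and 5.93 CPM with #11 and 1.28, 0.867 and 1.31 CPM without, a log2 fold change of 2.57 ± 0.32 (SE; adjusted p = 0.00102). The groups did not overlap, and the call held in each of the 24 fits that left out 1 library but not in a fit of the 6 libraries alone (adjusted p = 0.355), which called no gene. With 1 library left out, the log2 fold change ranged from 2.32 to 2.69. HDAC4 (chr2:239048168-239401654, GRCh38, minus strand) stood at 18.5, 16.9 and 14.5 CPM with #11 and 6.28, 5.71 and 7.50 CPM without. Its lowest library with #11 was above its highest without, at a log2 fold change of 1.36 ± 0.25 (adjusted p = 0.0383). Without KO esiCT OXPT replicate 3 the value was 1.45 (adjusted p = 0.0671), which ends the call. GNG7 was at 13.6, 12.5 and 13.4 CPM with #11 and 2.11, 2.60 and 5.83 CPM without, where replicate 3 was the highest of the control libraries. Its log2 fold change was 1.95 ± 0.35 (adjusted p = 0.0383), and 2.46 without that library (adjusted p = 0.00432). PACS2 was at 59.4, 62.1 and 55.7 CPM against 20.7, 17.9 and 31.8 CPM, a log2 fold change of 1.34 ± 0.25 with all libraries and 1.59 without the third control library (adjusted p = 0.0303). In the control group, replicate 3 was again the highest. SH3RF2 was at 4.39, 4.19 and 2.80 CPM with #11 and 11.6, 18.9 and 7.62 CPM without, a log2 fold change of -1.74 ± 0.32 (adjusted p = 0.0383). ENSG00000238178 was at 1.02, 0.673 and 0.801 CPM and 4.51, 10.3 and 3.93 CPM (-2.90 ± 0.53), a low level in all 6 libraries. Both genes were lower in every library with #11 than in any library without, and both calls held without the third control library (adjusted p = 0.00991 and 0.0319).

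**Figure D1:**
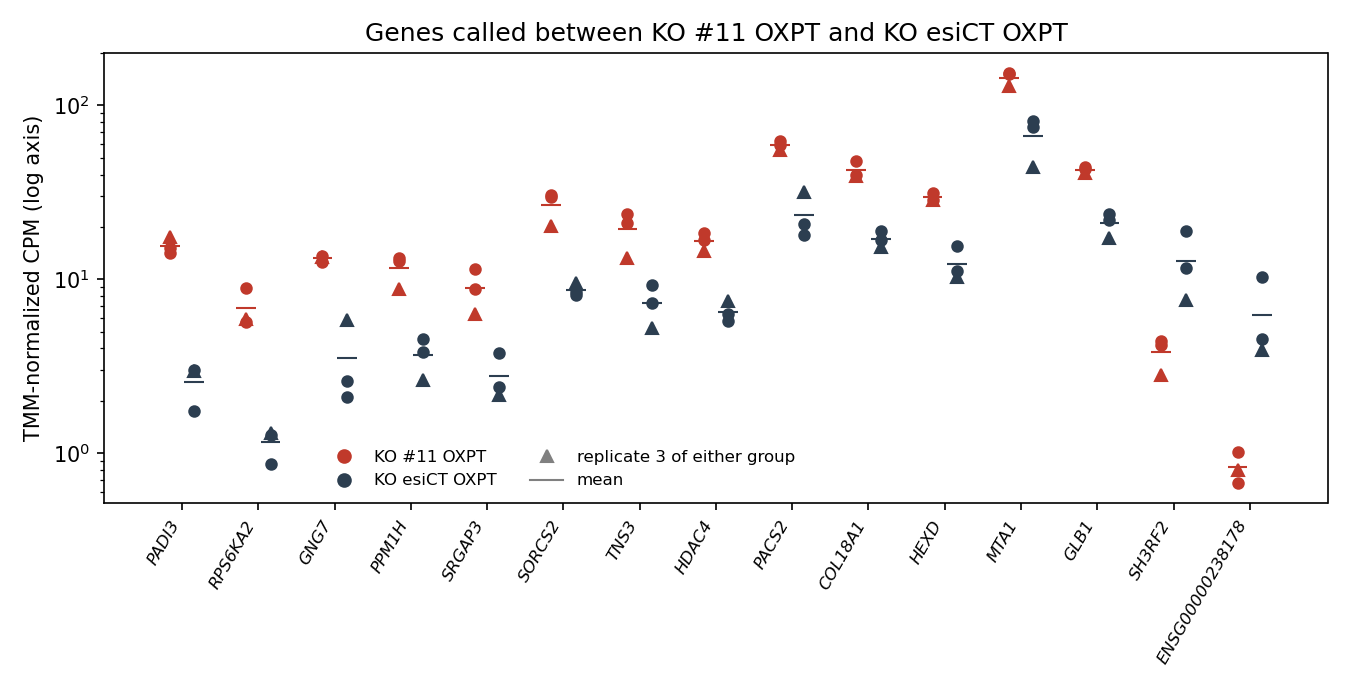
Levels of the 15 called genes in each of the 6 libraries (TMM-normalized CPM, log axis). Red points are KO #11 OXPT, dark points KO esiCT OXPT, triangles replicate 3 of either group, and lines means of 3. For all 15 genes the 2 groups are apart, with 13 genes higher and SH3RF2 and ENSG00000238178 lower with #11.

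PADI3 was at 14.1, 15.2 and 17.4 CPM with #11 and 2.99, 1.73 and 2.98 CPM without (2.60 ± 0.49 on the log2 scale). MTA1 had the highest counts of the 15, at 151, 153 and 129 CPM and 75.4, 81.1 and 44.3 CPM (1.11 ± 0.21). COL18A1, whose C-terminal fragment is endostatin, was at 48.0, 39.8 and 39.4 CPM and 18.8, 16.9 and 15.2 CPM (1.32 ± 0.26). In each of these 3 genes all libraries with #11 were above all libraries without. SORCS2 was at 29.8, 30.5 and 20.3 CPM and 8.39, 8.09 and 9.52 CPM (1.63 ± 0.31), TNS3 at 23.7, 21.1 and 13.2 CPM and 9.22, 7.30 and 5.24 CPM (1.40 ± 0.27), and GLB1 at 44.4, 43.1 and 40.7 CPM and 23.6, 22.0 and 17.3 CPM (1.03 ± 0.20). For TNS3 and GLB1, replicate 3 was the lowest in both groups. The log2 fold changes of PPM1H, SRGAP3 and HEXD were 1.65 ± 0.32, 1.65 ± 0.30 and 1.26 ± 0.24. Adjusted p-values of these 9 genes lay between 0.0383 and 0.0418. Without the third control library their log2 fold changes ran from 0.86 for MTA1 to 2.68 for PADI3, and 0 of the 9 stayed called (adjusted p = 0.0875 for SORCS2 to 0.117 for TNS3 and GLB1). Counting without strand leaves out reads on exons shared with another gene, as where COL18A1 lies over SLC19A1, PACS2 over BRF1, HEXD over OGFOD3 and CYBC1, and GLB1 over TMPPE. RPS6KA2, HDAC4, GNG7 and SRGAP3 overlap antisense genes, whose reads cannot be told apart from theirs by strand.

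The calls near the threshold depended on single libraries. With KO esiCT OXPT replicate 3 left out, 5 of the 15 remained (RPS6KA2, GNG7, PACS2, SH3RF2 and ENSG00000238178) and no gene was added. Leaving out KO esiCT OXPT replicate 1 or 2, or KO #11 OXPT replicate 1 or 2, left 1 call, RPS6KA2, and leaving out KO #11 OXPT replicate 3 left 6, of which 4 were among the 15. Since all 24 libraries share 1 estimate of the spread, libraries outside the comparison also mattered: 1 call was left without KO esiCT untreated replicate 1, any of the 3 KO esiHDAC4 untreated or 3 KO #11 untreated libraries, or the first WT OXPT library. Of the WT libraries, dropping untreated replicate 1 left 2 calls, dropping OXPT replicate 2 left 9, and dropping untreated replicate 3 gave 27. All 15 genes kept their direction in each of these 24 fits. Their groups did not overlap, so leaving out 1 library could hardly have reversed a sign. Just outside the threshold, among genes with a symbol, stood TRAPPC9 (1.19 ± 0.24, adjusted p = 0.0515), S100A10 (-1.26 ± 0.26, adjusted p = 0.0597) and MAP2 (2.02 ± 0.42, adjusted p = 0.0711), against 0.0418 for the last genes inside.

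The 13 higher genes were long and GC-rich. Their genomic spans ran from 24.3 to 550.3 kb with a median of 191 kb, against 30.7 kb over all genes tested, and 9 of 13 exceeded 100 kb, as did 18% of genes tested. The GC content of the canonical transcript lay between 49.5% and 67.2%, above the median of all genes tested (49.1%) in 13 of 13. Over all genes, the share with a higher value and p under 0.05 before adjustment was 3.43% for spans up to 5 kb, 5.71% to 6.32% between 5 and 100 kb, 9.67% from 200 to 400 kb and 15.9% over 400 kb (182 genes), while the share lower was 6.45% in the first of these classes and 3.85% in the last. The median log2 fold change of genes over 400 kb was 0.08 with all libraries and 0.00 without KO esiCT OXPT replicate 3, and that of genes up to 5 kb was -0.14 with it and 0.16 without it. By transcript length, the medians were -0.24 in the shortest decile and -0.16 in the longest, and 0.16 and -0.31 without that library. The direction for short transcripts therefore rests on 1 library, whose deviations follow transcript length in the plot by deciles, whereas the lower median of the longest decile was there in both fits. By GC content of the transcript, the median rose from -0.10 in the second lowest decile to 0.06 in the highest, and from -0.17 to 0.22 without that library. In a fit corrected for transcript length and GC content, 14 of the 15 calls were kept among 88.

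**Figure D2:**
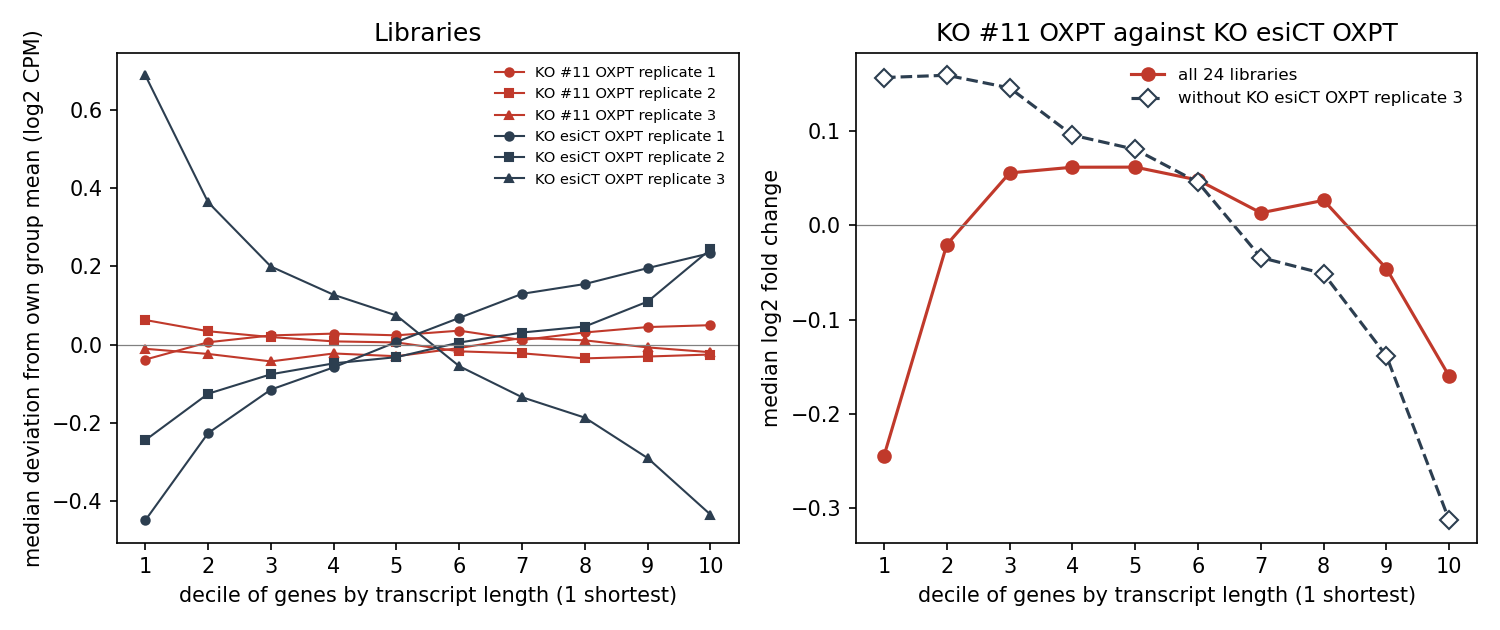
Left, median deviation of each library from its own group mean (log2 CPM) by decile of genes ordered by transcript length; right, median log2 fold change in the same deciles with all libraries (filled) and without KO esiCT OXPT replicate 3 (open). That library falls from 0.69 to -0.43 while the 3 libraries with #11 stay between -0.04 and 0.06, and the fold change of the shortest decile changes from -0.24 to 0.16 without it.

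Levels of the 13 higher genes were set beside those of KO esiCT cells without OXPT. In 11 of the 13, all 3 KO esiCT OXPT libraries were below all 3 KO esiCT untreated libraries, as in 14.8% of all genes tested and 28.4% of those over 100 kb. The 13 were called partly for low values in these same KO esiCT OXPT libraries, so this count is a description. In 6 of them the mean with #11 and OXPT lay between these groups, also a description, as the share over all genes was not computed. RPS6KA2 averaged 12.9 ± 3.34 CPM (SD, n = 3) untreated, 1.15 ± 0.246 CPM with OXPT and 6.85 ± 1.81 CPM with OXPT and #11. GNG7 averaged 36.7 ± 9.05, 3.51 ± 2.02 and 13.2 ± 0.606 CPM in the same order, and COL18A1 118 ± 22.9, 17.0 ± 1.80 and 42.4 ± 4.86 CPM. HDAC4 averaged 19.1 ± 5.45, 6.50 ± 0.915 and 16.6 ± 2.02 CPM, and its untreated libraries overlapped those with #11 and OXPT. As a share of the untreated mean, OXPT left 8.95% of RPS6KA2, 9.59% of GNG7 and 34.0% of HDAC4 without #11, and 53.3%, 35.9% and 87% with it. These shares use the same KO esiCT OXPT libraries as the fold changes above, so they restate the levels and add no independent evidence. SORCS2 went the other way: at 1.09 ± 0.151 CPM untreated and 8.67 ± 0.755 CPM with OXPT, it was higher with OXPT, and stood at 26.9 ± 5.68 CPM with both. PADI3, at 3.25 ± 1.90 CPM untreated and 2.57 ± 0.721 CPM with OXPT, overlapped between these groups. SH3RF2 was at 13.3 ± 2.93 CPM untreated, 12.7 ± 5.70 CPM with OXPT and 3.79 ± 0.864 CPM with OXPT and #11. In OXPT-treated cells with esiHDAC4, where HDAC4 mRNA was at 4.13, 3.33 and 4.19 CPM, the 13 genes were below, and the 2 lower genes above, every library with #11. All of these genes were chosen for their values in the same libraries with #11, and HDAC4, 1 of the 13, is the target of that esiRNA. The share over all genes was not computed, so this too is a description. The esiHDAC4 libraries overlapped KO esiCT OXPT for 8 of the 13 and for both lower genes, again without a share over all genes. RPS6KA2 was at 2.43, 1.76 and 2.30 CPM with esiHDAC4 and OXPT. No test was made between #11 and esiHDAC4.

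**Figure D3:**
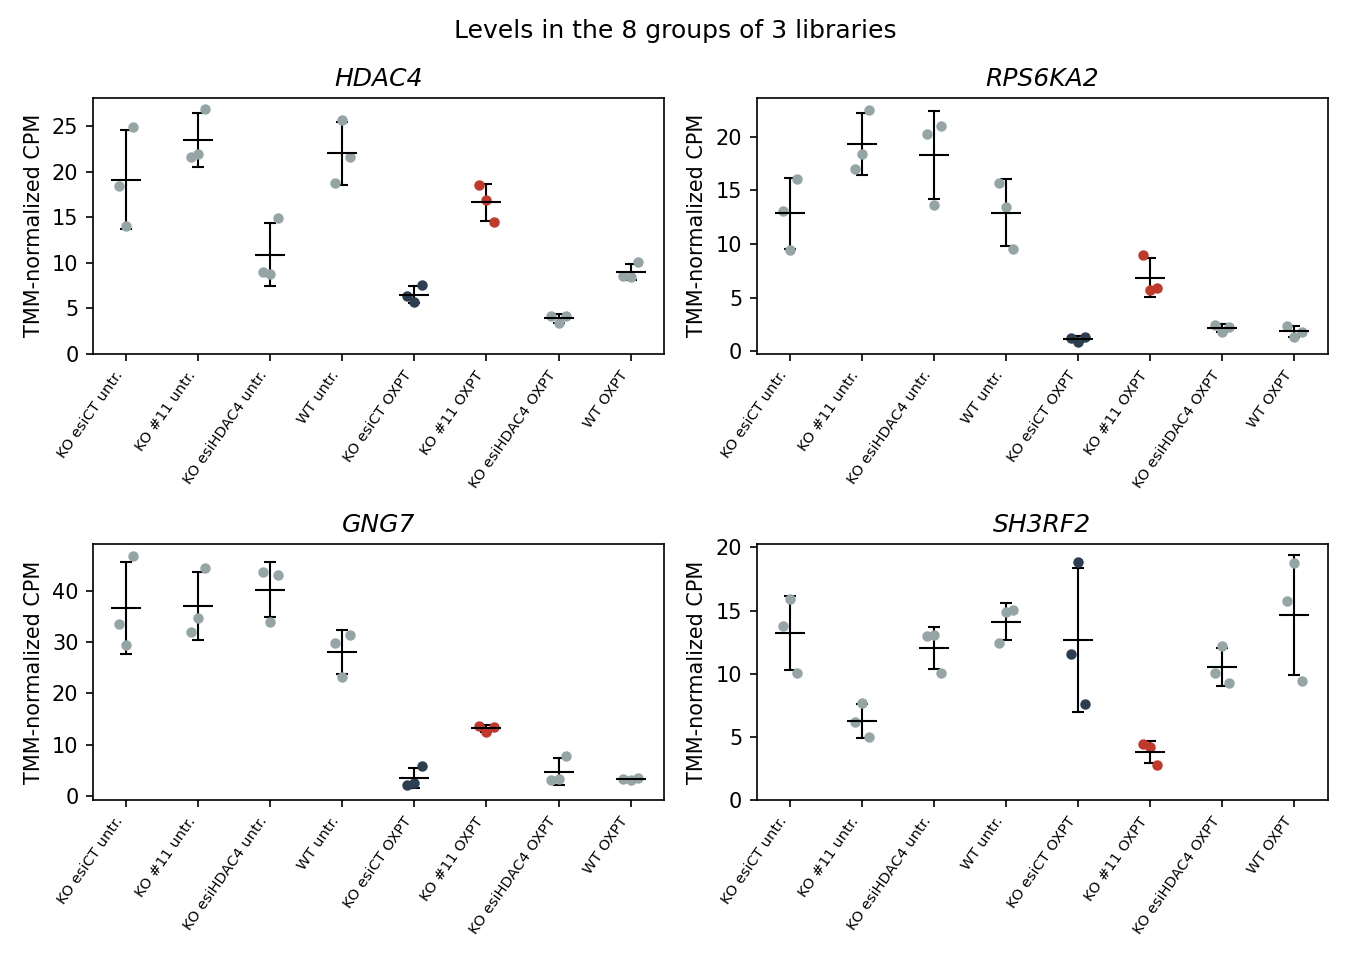
HDAC4, RPS6KA2, GNG7 and SH3RF2 in the 8 groups of 3 libraries (TMM-normalized CPM, linear axes that start near 0; points are libraries, bars mean and SD). Under OXPT the red points (#11) lie above the other OXPT groups for HDAC4, RPS6KA2 and GNG7 and below them for SH3RF2.

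Without OXPT, #11 against esiCT called 63 genes (0.51% of genes tested), 47 higher and 16 lower, between groups other than the 2 compared under OXPT. Of the 15 genes called under OXPT, 0 were called untreated and 15 had the same sign there. Untreated log2 fold changes were 0.59 for RPS6KA2 (adjusted p = 0.351), 0.01 for GNG7 (0.991), 0.30 for HDAC4 (0.649), 1.43 for PADI3 (0.153) and -1.08 for SH3RF2 (0.107). The difference between the effects of #11 with and without OXPT, tested as an interaction, was called for no gene (0% of genes tested, edgeR), while 863 genes had p under 0.05 before adjustment and DESeq2 called 36. For RPS6KA2 the interaction was 1.99 ± 0.41 (adjusted p = 0.111), for GNG7 1.93 ± 0.48 (0.3) and for HDAC4 1.06 ± 0.34 (0.449). These 3 genes were chosen on the OXPT side of this difference. Of the 63 genes called untreated, 42 had the same sign under OXPT, as did 63% of all genes tested, and 18 did not overlap between the OXPT groups in that direction, as did 9.99% of all genes. Over all 12356 genes the log2 fold changes of the 2 comparisons had a Pearson correlation of 0.41, a description across genes, which are not independent. The groups compared share no library, but all entered the same fit, with 1 estimate of the spread and 1 count filter.

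**Figure D4:**
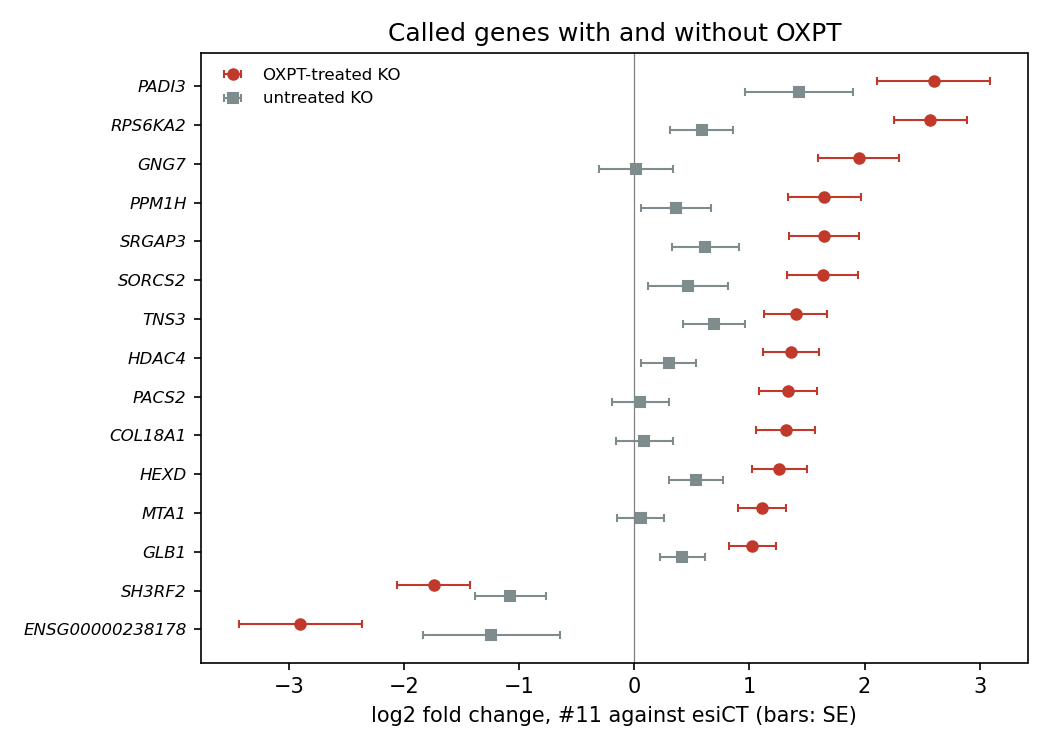
Log2 fold change of #11 against esiCT for the 15 called genes in OXPT-treated KO cells (red circles) and in untreated KO cells (grey squares), with SE. Each gene has the same sign in both, and the untreated value is the smaller in size for all 15.

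Gene lists were described by their members. Of 26 lists, class IIa HDACs and the basement membrane list held 1 called gene each. In the other 24, with 549 distinct genes tested, 0 were called by edgeR. Before adjustment, p was under 0.05 for 16 of the 549 in the higher direction and 31 in the lower. Over all genes the shares were 6.24% and 3.99%. Of the 31, 10 were OXPHOS genes, whose median changed sign without KO esiCT OXPT replicate 3. By DESeq2, 2 of the 549 were called, S100A10 and IRS2. Groups did not overlap in the higher direction for 39 of the 549 and in the lower for 19, against 9.46% and 4.89% of all genes. Each of these counts is a smaller share than over all genes, and all genes leaned higher as well, so this lean is not particular to the lists. The unadjusted counts of the lists leaned lower. Over all genes tested, the median difference on the log2 scale was -0.01, and 0.03 without KO esiCT OXPT replicate 3.

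**Figure D5:**
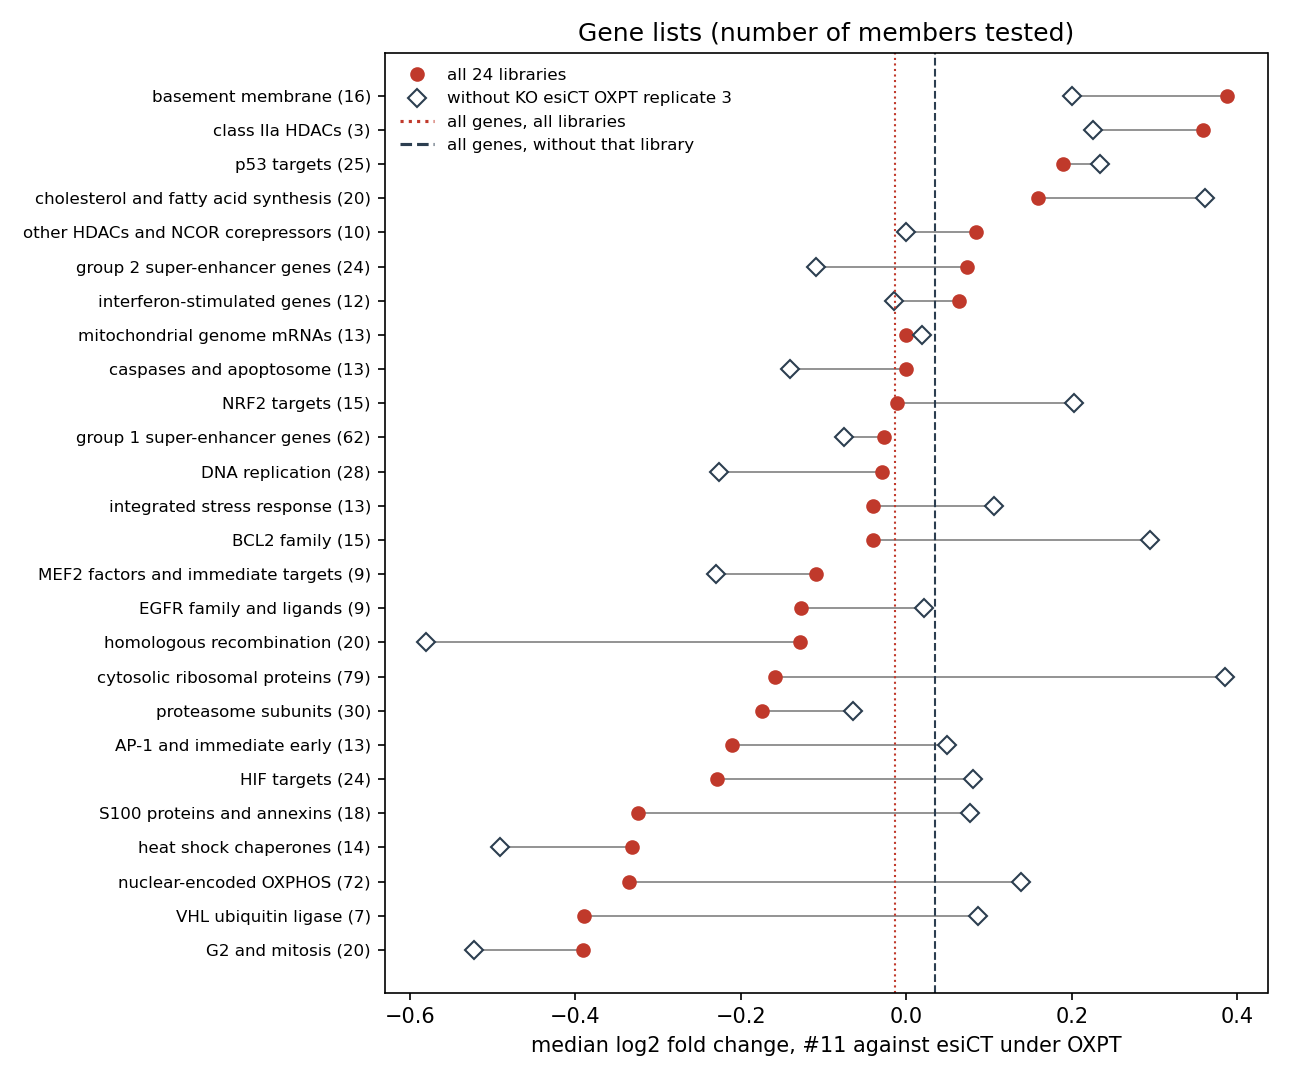
Median log2 fold change of the members of 26 gene lists with all libraries (filled) and without KO esiCT OXPT replicate 3 (open diamonds), beside the medians of all genes (vertical lines). Ribosomal protein, OXPHOS, VHL ligase, HIF, S100 and AP-1 lists cross 0 when that library is left out, whereas the basement membrane, p53 target, heat shock and G2 and mitosis lists keep their sign.

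Among the targets of #11, HDAC4 alone of 3 class IIa genes tested was called. HDAC5, which like HDAC7 binds MEF2 factors, was at 55.6, 60.4 and 67.3 CPM with #11 and 51.9, 50.9 and 66.1 CPM without (0.12 ± 0.20, adjusted p = 0.868). HDAC7 was at 67.7, 57.0 and 34.5 CPM and 41.8, 54.0 and 28.2 CPM (0.36 ± 0.23, adjusted p = 0.635). Both overlapped between the groups. HDAC9 was under the count filter, at 3, 12 and 6 reads with #11 and 12, 5 and 2 reads without. Of 10 other HDACs and NCOR corepressor subunits, 1 did not overlap, HDAC6, the cytoplasmic tubulin deacetylase (0.46 ± 0.20, adjusted p = 0.454). Over all genes, 9.46% did not overlap in that direction. HDAC2, a class I enzyme, was at 0.35 ± 0.18. The list's median was 0.08, and 0.00 without the third control library. MEF2 factors and early genes often assigned to them had a median of -0.11 over 9 members (-0.23 without that library), against 1.03 untreated. MEF2A was at 0.32 ± 0.38, adjusted p = 0.809, and MEF2D at 58.4, 64.7 and 57.1 CPM with #11 and 68.3, 77.2 and 73.9 CPM without (-0.28 ± 0.23, adjusted p = 0.704), lower in every library with #11. KLF6, a zinc finger factor, was at 87.7, 82.5 and 129 CPM and 105, 187 and 413 CPM (-1.24 ± 0.52, adjusted p = 0.439), and -0.57 without the third control library, its highest. NR4A2, an orphan nuclear receptor, was at 0.14 ± 0.32.

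The ligase that #11 recruits showed no call. VHL was at 84.2, 80.3 and 98.7 CPM with #11 and 90.8, 71.8 and 104 CPM without (-0.02 ± 0.18, adjusted p = 0.983, or 0.086 without control replicate 3). The scaffold CUL2 was at 22.2, 17.3 and 19.5 CPM and 34.0, 34.0 and 8.93 CPM (-0.39 ± 0.54, adjusted p = 0.84, or -0.81 without control replicate 3), where the third control library was far below its partners. ELOC, the elongin that links VHL to CUL2, was at -0.50 ± 0.27, or -0.14 without control replicate 3, and NEDD8, which is attached to cullins, at -0.79 ± 0.48 with all libraries and 0.31 without that control. The median of the 7 ligase genes was -0.39, and 0.09 without it. HIF targets, the genes switched on by the factor that VHL marks for destruction, had a median of -0.23 over 24 members (0.08 without that library, and -0.77 untreated). Of these, 0 of 24 separated the groups under OXPT, against 9.46% higher and 4.89% lower over all genes. HK2, which starts glycolysis, was at -1.17 ± 0.40, adjusted p = 0.303, or -0.84 without control replicate 3, and LDHA, lactate dehydrogenase A, at -0.70 ± 0.43, adjusted p = 0.613, or -0.32 without control replicate 3. Among 30 proteasome subunits, 3 were lower in all libraries with #11, against 4.89% of all genes. Among these 3 were PSMC1 (-0.50 ± 0.21, adjusted p = 0.439) of the base and PSMB6 (-0.50 ± 0.25, adjusted p = 0.509, or -0.15 without control replicate 3) of the core. The list median was -0.17 (-0.06 without the third control library, and -0.48 untreated).

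No gene of the p53 response or of cell death passed the test. Of 25 p53 targets tested, 4 were higher in all libraries with #11 and 0 lower, against 9.46% and 4.89% of all genes. The list median was 0.19 (0.23 without the third control library). CDKN1A, the cell cycle inhibitor p21, was at 2764, 2585 and 2508 CPM with #11 and 2879, 2542 and 3752 CPM without (-0.22 ± 0.35, adjusted p = 0.86), and MDM2, the ligase of p53, at -0.27 ± 0.48, adjusted p = 0.88, or -0.61 without control replicate 3. TP53INP1, which promotes p53-dependent death, was at 0.71 ± 0.38, adjusted p = 0.548, and FDXR, a mitochondrial reductase, at 0.46 ± 0.23, adjusted p = 0.509. PMAIP1, which encodes the BH3-only protein NOXA, was at 56.5, 83.3 and 210.3 CPM with #11 and 84.4, 72.4 and 84.0 CPM without (0.54 ± 0.40, adjusted p = 0.676). Replicate 3 with #11 was high and the other two were below the highest control. Without that library the sign turned (-0.20). BBC3, which encodes PUMA, was at 163, 169.6 and 127 CPM and 114, 114 and 116 CPM (0.42 ± 0.40, adjusted p = 0.757), higher in all libraries with #11. BAK1, which permeabilizes mitochondria, was at -0.42 ± 0.30, adjusted p = 0.666. The 15 BCL2 family genes had a median of -0.04 (0.29 without the third control library). Of 13 caspase and apoptosome genes, CASP10, an initiator caspase, was at 4.24, 3.59 and 5.29 CPM and 2.11, 2.10 and 0.952 CPM (1.30 ± 0.45, adjusted p = 0.31). CASP10 averaged 56 reads with #11 and OXPT and 26.7 reads with OXPT alone, both under the count filter of 64. Its mean level was highest in untreated KO cells with #11, at 4.94 CPM, so its entry into the test may have depended on #11.

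The OXPHOS and ribosomal protein lists changed sign with 1 library. The 72 nuclear-encoded OXPHOS genes had a median of -0.34, with 10 lower at p under 0.05 before adjustment, but 0.14 without KO esiCT OXPT replicate 3. Untreated, in other libraries, their median was -0.29. NDUFA9 and NDUFB2, both of complex I, were at -1.12 ± 0.33, adjusted p = 0.225 and -1.06 ± 0.34, adjusted p = 0.273, and at -0.68 and -0.26 without that control library. For NDUFB2 the control libraries were at 46.1, 62.4 and 179 CPM, the third far above the others. The 79 cytosolic ribosomal protein genes had a median of -0.16, 0.38 without that library and 0.15 untreated. RPL13A was at 0.68 ± 0.27, adjusted p = 0.388, higher in all libraries with #11, and RPS15A at -0.95 ± 0.44, adjusted p = 0.468, or 0.24 without control replicate 3, with control libraries at 143, 189.6 and 821 CPM. The 13 mRNAs of the mitochondrial genome had a median of 0.00 (0.02 without it). MT-CYB of complex III was at 6937, 6943 and 6904 CPM and 5767, 5668 and 5388 CPM (0.31 ± 0.29, adjusted p = 0.76), and MT-ND3 of complex I at -0.21 ± 0.25, or 0.23 without it.

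Of 16 basement membrane genes tested, COL18A1 was called. In all libraries with #11, 6 of the 16 were higher and 1 lower, against 9.46% and 4.89% of all genes. The list median was 0.39 (0.20 without the third control library, and 0.36 untreated). The 6 were COL18A1, HSPG2 (perlecan, 1.53 ± 0.47, adjusted p = 0.235), the collagen IV genes COL4A3 (1.69 ± 0.58, adjusted p = 0.309), COL4A4 (0.69 ± 0.37, adjusted p = 0.553) and COL4A5 (0.68 ± 0.31, adjusted p = 0.463), and ITGB4, the laminin receptor subunit (0.46 ± 0.33, adjusted p = 0.671). The laminin gene LAMB3 (-1.0 ± 0.64, adjusted p = 0.627) was the 1 lower. S100A10, the annexin A2 partner, was at 186, 204 and 189 CPM with #11 and 363, 439.9 and 583 CPM without (-1.26 ± 0.26, adjusted p = 0.0597), lower in all libraries with #11, and at -1.08 without the third control library. ANXA6 was at 1.02 ± 0.35, adjusted p = 0.3, or 1.39 without control replicate 3. The 18 S100 and annexin genes had a median of -0.32 (0.08 without that library). By the rule for named genes, 9 further uncalled genes had the smallest unadjusted p among those with lower values in all libraries with #11 and at least 64 counts in both groups: CPA4, a carboxypeptidase (-2.69 ± 0.58, adjusted p = 0.0787), CST6, a cystatin (-1.59 ± 0.39, adjusted p = 0.118, or -1.04 without control replicate 3), TENT5B (-1.49 ± 0.32, adjusted p = 0.074), TGM2, a transglutaminase (-1.46 ± 0.34, adjusted p = 0.0952), MYADM (-1.44 ± 0.31, adjusted p = 0.0762, or -0.99 without control replicate 3), PALM2AKAP2 (-0.99 ± 0.23, adjusted p = 0.0952), CLU, the chaperone clusterin (-0.91 ± 0.22, adjusted p = 0.125), TPM4, a tropomyosin (-0.67 ± 0.15, adjusted p = 0.0872), and BCAT2, a transaminase (-0.67 ± 0.17, adjusted p = 0.125). CPA4 was at 17.3, 14.7 and 27.3 CPM with #11 and 98.5, 187 and 96.2 CPM without. On the higher side the rule added SLC38A10 (1.36 ± 0.29, adjusted p = 0.074) and SPRY4, a feedback inhibitor of receptor tyrosine kinase signalling (0.91 ± 0.19, adjusted p = 0.0711).

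Stress response lists held no called gene under OXPT. The integrated stress response list, targets of ATF4, had a median of -0.04 over 13 members under OXPT (0.11 without the third control library) and 2.23 untreated. ATF4 itself was at 635, 626 and 926 CPM with #11 and 508, 440.3 and 568 CPM without (0.53 ± 0.37, adjusted p = 0.663), and PHGDH, of serine synthesis, at 0.49 ± 0.32, adjusted p = 0.64. Both were higher in all libraries with #11. Heat shock chaperones had a median of -0.33 over 14 members, -0.49 without the third control library and -1.29 untreated. HSPB1 was at 785, 771 and 854 CPM and 878, 1087 and 1859 CPM (-0.67 ± 0.24, adjusted p = 0.331, or -0.31 without control replicate 3), and the co-chaperonin HSPE1 at -0.83 ± 0.33, adjusted p = 0.388, or -0.28 without control replicate 3. Among 15 NRF2 targets, the ferritin light chain gene FTL was at -0.73 ± 0.28, adjusted p = 0.383, or -0.32 without control replicate 3, and the efflux pump gene ABCC3 at 0.92 ± 0.45, adjusted p = 0.499, with a list median of -0.01 (0.20 without that library). Of 12 interferon-stimulated genes, 4 were higher in all libraries with #11 and 0 lower, against 9.46% and 4.89% of all genes. Their median was 0.06 (-0.01 without the third control library). BST2, tetherin, was at 1.65, 2.54 and 2.24 CPM and 0.638, 0.361 and 0.714 CPM (1.91 ± 0.57, adjusted p = 0.234), and IFIT1, a sensor of viral RNA, at 5.49, 5.61 and 7.45 CPM and 3.29, 1.59 and 2.50 CPM (1.32 ± 0.49, adjusted p = 0.358). Both are low-count genes. BST2 averaged 27.7 reads with #11 and OXPT and 8 reads with OXPT alone. Both means are under the count filter of 64, so BST2 was tested because of another group. Its mean level was highest in untreated KO cells with #11, at 4.94 CPM. Its entry into the test may therefore have depended on #11, and the count of 4 higher genes is a description. Genes of cholesterol and fatty acid synthesis had a median of 0.16 (0.36 without the third control library, and -0.52 untreated), with the factor SREBF1 at 0.33 ± 0.21, adjusted p = 0.625.

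Proliferation genes varied widely within the control group. In bulk libraries, fewer dividing cells and less of these mRNAs per cell cannot be told apart. MKI67, the Ki-67 antigen, was at 21.8, 30.5 and 33.6 CPM with #11 and 127, 265 and 13 CPM without (-2.24 ± 0.93, adjusted p = 0.419, or -2.80 without control replicate 3), and the kinetochore gene CENPF at 4.94, 6.88 and 6.65 CPM and 23.2, 48.5 and 3.21 CPM (-2.03 ± 0.90, adjusted p = 0.456, or -2.56 without control replicate 3). Replicates 1 and 2 without #11 were above all libraries with #11 and replicate 3 was below them. The 20 G2 and mitosis genes had a median of -0.39, -0.52 without that replicate and -0.83 untreated. The replication genes MCM10 and MCM6 followed the same order of libraries, MCM10 at 5.49, 5.08 and 5.05 CPM and 22.2, 26.7 and 2.14 CPM (-1.72 ± 0.89, adjusted p = 0.539, or -2.25 without control replicate 3) and MCM6 at -1.12 ± 0.68, adjusted p = 0.608, or -1.54 without control replicate 3, with a median of -0.03 over 28 genes (-0.23 without it). So did BRCA1, at 4.39, 4.19 and 5.69 CPM and 14.6, 17.8 and 3.33 CPM (-1.33 ± 0.72, adjusted p = 0.553, or -1.79 without control replicate 3). The 20 homologous recombination genes had a median of -0.13, and -0.58 without the third control library, where 0 were called. RAD52, which anneals single strands, was at 0.52 ± 0.18, adjusted p = 0.312, higher in all libraries with #11.

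Among growth factor genes, the untreated medians of the AP-1 and immediate early list (1.06) and of the EGFR list (1.14) stood beside -0.21 and -0.13 under OXPT (0.05 and 0.02 without the third control library). FOS was at 7.69, 7.18 and 53.2 CPM with #11 and 5.94, 3.47 and 6.43 CPM without (2.11 ± 0.70, adjusted p = 0.286), where the third library with #11 stood far above its partners and the log2 fold change ranged from 0.50 to 2.53 with 1 library left out, and FOSL2 at 36.8, 40.6 and 50.9 CPM and 69.7, 60.2 and 90.5 CPM (-0.78 ± 0.31, adjusted p = 0.404). The EGFR ligand betacellulin (BTC) was at 1.88, 3.14 and 3.84 CPM and 1.28, 0.795 and 1.43 CPM (1.35 ± 0.44, adjusted p = 0.286), and the receptor ERBB2 at 0.43 ± 0.18, adjusted p = 0.413. Amphiregulin (AREG), another ligand, was at 621, 518 and 676 CPM and 427, 462 and 1992 CPM (-0.67 ± 0.68, adjusted p = 0.771). Replicate 3 of the controls was the only one above the libraries with #11, and without it the value was 0.42. ERRFI1, which inhibits EGFR, was at 164, 173 and 313 CPM and 359, 234 and 279 CPM (-0.42 ± 0.30, adjusted p = 0.667).

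Genes that the study placed near super-enhancers restrained (group 1) or activated (group 2) by HDAC4 inhibition were also described. The lists come from the same cell model, so their direction is not independent evidence. Of 62 group 1 genes tested, 9 were higher and 5 lower in all libraries with #11, at a median of -0.03 (-0.08 without the third control library). Of 24 group 2 genes, 5 were higher and 2 lower, at a median of 0.07 (-0.11). Over all genes, 9.46% were higher and 4.89% lower in all libraries with #11. No member of either list was called by edgeR. In group 1, RNF43, a ligase that removes WNT receptors, was at 117, 94.8 and 51.9 CPM with #11 and 47.1, 58.5 and 106 CPM without (0.32 ± 0.33, adjusted p = 0.775, or 0.71 without control replicate 3). TES, a focal adhesion protein, was at 96.5, 82.5 and 114 CPM and 159.7, 144 and 180.5 CPM (-0.73 ± 0.20, adjusted p = 0.172), lower in all libraries with #11, and ELF3, an epithelial ETS factor, at 71.1, 67.2 and 71.4 CPM and 79.6, 84.5 and 145 CPM (-0.56 ± 0.47, adjusted p = 0.72). In group 2, NR4A2 was at 22.6, 19.1 and 29.1 CPM and 18.1, 19.6 and 26.5 CPM (0.14 ± 0.32, adjusted p = 0.913), and IRS2, an insulin receptor substrate, at 23.8, 21.2 and 32.6 CPM and 31.0, 58.7 and 125 CPM (-1.46 ± 0.38, adjusted p = 0.138, or -0.81 without control replicate 3), with its highest control in replicate 3. STN1, of the telomere-capping CST complex and in both lists, was at 8.39, 8.08 and 9.85 CPM and 5.20, 3.04 and 3.21 CPM (1.18 ± 0.39, adjusted p = 0.286). Outside these lists, 3 more genes fixed for naming were ICAM1, ADGRF3 and TMEM74. ICAM1, an adhesion receptor, was at 11.6, 12.3 and 12.1 CPM and 9.47, 9.47 and 5.00 CPM (0.58 ± 0.39, adjusted p = 0.644). ADGRF3 and TMEM74 were under the count filter, ADGRF3 at 5, 5 and 4 reads with #11 and 20, 10 and 7 reads without, and TMEM74 at 4, 4 and 16 reads with #11 and 6, 2 and 0 reads without.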

How the data were processed

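RNA of HCT-116 cells was sequenced by the authors and deposited as 1 table of raw read counts per gene and library, without normalization. Each table has an unstranded, a forward and a reverse column, as STAR writes them. The submitters' processing notes name Trimmomatic 0.39, STAR 2.7.11a and hg38, whereas the methods of the study describe salmon and DESeq2, so these counts need not be the values that were tested there. The annotation behind the counts is not given in the sources used here. Of 62757 identifiers, 62686 matched GENCODE 44 on GRCh38 (62130 with their version). The 4 summary rows that name no gene were left out of library sizes and tests: per library, 7.74% to 22.3% of reads were unmapped, 2.58% to 5.79% lay outside genes and 10.6% to 12.2% were ambiguous.

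The unstranded column was used, since reverse and forward totals were nearly equal (ratios of 1.00 to 1.02). Libraries were grouped by the labels, 24 in 8 groups of 3, and 12 WT libraries whose labels give opposite OXPT states were not used. In R 4.3.3, edgeR 4.0.16 was run with TMM factors, 1 coefficient per group and its quasi-likelihood F test, on the 12356 genes that averaged 64 or more counts in some group. A gene was called where its p, adjusted by Benjamini-Hochberg, was under 0.05 and its fold over 1.5. Standard errors were obtained by dividing the absolute log2 difference by the root of F. The prior count was 2. Replicates of the 2 groups differed beyond sampling noise (chi-square per degree of freedom of 9.09 to 152 over 6 pairs). The scripts were tested on simulated data.

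Alternatives were the reverse-strand counts, DESeq2 1.42.0, RLE normalization, other count filters, fewer groups, a replicate block, a correction for GC content and transcript length, and each library left out. limma 3.58.1 with library weights was chosen after seeing the data. Members, gene lists and tests were chosen with earlier results of these data known. Genes named were 22 fixed ones, the 10 calls with the largest rise and the 10 with the largest fall that had a symbol, averaged 64 counts or more in each of the 2 groups and did not overlap (filled up with uncalled genes by unadjusted p), and from each of 26 lists the called members or else the 2 with the smallest p. Some of the genes this rule picked are not reported here. No list test was made. Upstream sequences are from RefSeq (GRCh38.p14).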

Additional observations from a re-analysis of the deposited data

How the results depend on the processing

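All 15 genes called under OXPT kept their sign in every alternative that tested them, which groups that do not overlap nearly fix in advance. With a mean count of 64 in every group, 6 of the 15 were tested. The number of calls moved with the model. Against 15 in the main analysis, DESeq2 called 126 genes, no count filter 367, a mean count of 64 in every group 0 (927 at p under 0.05 before adjustment), only the groups compared 0 (916 at p under 0.05 before adjustment), the correction for GC content and length 88, number 3 left out of every group 1438 and limma-voom with library weights 1912, the last chosen after seeing the data. Without the filter, 130 of the 367 were higher, and without number 3, 556 of the 1438. Reverse-strand counts gave 15 calls (8 of the 15 kept), RLE normalization 15, and the 18 KO libraries alone 21 (12 kept). Leaving out 1 library gave 1 to 27. Untreated, in place of 63, the counts were 409 with DESeq2, 480 without a filter, 375 with KO libraries only, 566 with only the groups compared, 328 with the correction, 1816 without number 3, 2636 with limma-voom, and 0 to 338 with 1 library left out. For the interaction, in place of 0, they were 36, 65, 71 and 20 for the first 4 of these, 244 without number 3, 1519 with limma-voom, and 0 to 39 with 1 library left out. The cause of these differences was not tested.

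The replicate numbers do not pair the libraries: same-numbered deviations correlated at -0.23, 0.13 and -0.03 under OXPT and at 0.11, -0.25 and -0.17 untreated. A replicate block on the number gave 132 calls under OXPT, 397 untreated and 15 for the interaction, and the block with the correction for GC content and length gave 409, 1013 and 42.

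Of 88 genes that the rule for named genes picked, 9 changed sign in some alternative, none of them called. Without number 3, log2 fold changes were 0.32 for AREG, -0.28 for MEF2A, 0.21 for MT-ND3, 0.34 for NEDD8, -0.21 for PMAIP1 and 0.18 for RPS15A. With limma-voom they were 0.16 for AREG, -0.024 for MEF2A, 0.30 for MT-ND3, 0.19 for NEDD8, 0.087 for RPS15A and 0.050 for VHL. ICAM1 was at -0.10 with reverse-strand counts, and MT-ND3 at 0.24 with the correction and 0.26 with block and correction. With 1 library left out, the ranges were -1.03 to 0.42 for AREG, -0.42 to 0.23 for MT-ND3, -1.20 to 0.31 for NEDD8, -0.038 to 0.30 for NR4A2, -0.20 to 0.86 for PMAIP1, -1.35 to 0.24 for RPS15A and -0.15 to 0.086 for VHL. The counts behind RPS6KA2 without #11 (a mean of 16.3 reads) limit its fold change.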
